A study of Homo sapiens with 3 samples.

Results

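hsa-miR-221 and hsa-miR-222 are a pair of miRNAs cut from neighbouring hairpins of the same primary transcript. They were taken by name from the human miRNA probes of the array, where they are 2 of 851 human names. Both are widely described as oncogenic miRNAs that are higher in liver cancer than in the surrounding liver. They silence mRNAs of growth inhibitors, among them CDKN1B (p27) and CDKN1C (p57), which hold back cyclin-dependent kinases before DNA replication. Like other miRNAs they act once loaded into Argonaute2 (Ago2), the core of the RNA-induced silencing complex, so RNA recovered with Ago2 is taken here as the loaded pool.

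That pool was profiled in Hep G2 cells, an established human liver cancer line, on 3 single-colour Agilent arrays. Non-treated cells gave 1 array, and cells given 5 nM of a synthetic RNA that mimics either miR-195 or miR-497 gave 1 array each, all labelled at 24 hours and made from 10 ng of Ago2-bound RNA. No group had a second array here, so no difference has a replicate check or a p-value, and precision is set by having so few arrays. The labels name no control duplex and do not say whether non-treated cells received the transfection reagent, and an effect of the mimic and one of transfection itself cannot be told apart. RNA outside Ago2 was not analysed here, and a lower amount in the cell and a lower share loaded into Ago2 cannot be told apart either. None of the 3 arrays is labelled as a control immunoprecipitation, so RNA carried over unspecifically cannot be told from loaded RNA.

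The guide strands are shown first because their common seed, bases 2 to 8 in capitals, is what makes them a family. They are named hsa-miR-221-3p and hsa-miR-222-3p in RefSeq, which supplied the sequences (GRCh38.p14). The passenger strand of MIR222, which the array calls hsa-miR-222*, is given as the other arm of that hairpin. hsa-miR-22-3p is printed because the deposited value of hsa-miR-221 equalled, on the linear scale, the total of hsa-miR-22 plus a small part of its own.
hsa-miR-221-3p: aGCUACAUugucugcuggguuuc
hsa-miR-222-3p: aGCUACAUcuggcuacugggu
hsa-miR-222-5p: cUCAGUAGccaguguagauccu
hsa-miR-22-3p: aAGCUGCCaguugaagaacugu
The guide strands of MIR221 and MIR222 begin with the same 8 bases and differ from the next base on. Without gaps, 11 of 21 positions were identical, while hsa-miR-221-3p and hsa-miR-22-3p matched at 5 of 22. When gaps were allowed, hsa-miR-221-3p and hsa-miR-222-3p aligned with 18 identical bases, 2 mismatches and 4 gaps. Among 2370 mature names of RefSeq only these 2 carry the seed GCUACAU. hsa-miR-221-3p is 23 bases long with 47.8% G or C, and hsa-miR-222-3p 21 bases with 52.4%. In the GRCh38.p14 annotation both hairpins lie on the minus strand of chromosome X within the host transcript MIR222HG, with 0 annotated genes between them.

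The arrays are described briefly, since they set what can be seen of a dim miRNA. Each held 15024 non-control spots. A spot's processed signal is its brightness after background subtraction, in intensity units, and a probe counted as well above background if the scanning software had so flagged more than 50% of the spots kept for it. Human miRNAs well above background numbered 168, 153 and 121 on the non-treated, miR-195 and miR-497 arrays. The miR-497 array was dimmer, at 0.318 times the 75th percentile of the non-treated array over 183 probes detected on all 3 arrays. Of 4 miRNAs usual in hepatocyte-derived cells, hsa-miR-192 and hsa-miR-194 were detected on all arrays and hsa-miR-148a on the non-treated and miR-195 arrays. hsa-miR-122, the main miRNA of adult liver, was not well above background on any of them. Among 11 markers of other cell types, only hsa-miR-142-3p and hsa-miR-142-5p, known from blood cells, were detected, on all 3 arrays.

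hsa-miR-221 was present at a low signal in the Ago2 pool of non-treated cells, and hsa-miR-222 was not detected on any array. The signal of hsa-miR-221, summed over its 2 probes, was 56.9 units (spot SD 4.50) in non-treated cells, 42.2 units (spot SD 5.92) with the miR-195 mimic and 18.6 units (spot SD 1.91) with the miR-497 mimic. The spot SD is the spread between the spots of each probe on the same array, and it leaves out how cultures or immunoprecipitations vary. hsa-miR-221 was well above background on the first and second of these arrays and not on the miR-497 array.

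Its signal came mainly from the brighter of its probes. On the non-treated array that probe had a lowest spot of 45.2, a median of 46.9 and a highest of 52.6 units over 5 used spots, all well above background, after 3 outlier spots were left out. On the miR-195 array its 8 spots ran from 27.3 through a median of 32.9 to 39.4 units, all well above background. On the miR-497 array 7 used spots ran from 11.7 through 12.8 to 16.1 units, and none was well above background. The used spots of these 3 arrays did not overlap, in the order non-treated, miR-195, miR-497. The outlier spots left out on the non-treated array read 37.9, 38.4 and 59.3 units, and the lower of these lay within the range of the miR-195 array. The spots of 1 array share that array's brightness and are not replicates of a condition.

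The dimmer probe of hsa-miR-221 was not well above background on any array. Its used spots ran from 4.14 to 12.5 units in non-treated cells, from 1.52 to 15.0 with miR-195 and from 4.53 to 6.02 with miR-497, and they overlapped between the arrays. Negative control spots, which carry no miRNA probe, give the level to read this against. The central 90% of the 434 negative control spots lay between -1.10 and 9.89 units on the non-treated array, and their 95th percentile was 10.2 with miR-195 and 11.4 with miR-497. Of 41 used spots of hsa-miR-221 on the 3 arrays, 25 were above the 95th percentile of the negative controls of their own array and 0 were below 0. Among the spots left out as outliers, 2 of the dimmer probe on the miR-497 array read below 0, at -2.42 and -1.12 units.

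On the miR-497 array hsa-miR-221 was not well above background. All 12 of its used spots carried the software's weaker flag for a positive and significant signal, and 7 of them, all of the brighter probe, were above the 95th percentile of the negative controls. The mean of the dimmer probe was 5.23 units there, close to the negative control median of 4.92.

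hsa-miR-222 gave no signal that could be told from background. Summed over its 2 probes it was -3.78 units (spot SD 4.34) in non-treated cells, -4.80 (spot SD 4.43) with the miR-195 mimic and -6.42 (spot SD 4.17) with the miR-497 mimic. Its probes had means of -4.46 and 0.676 units in non-treated cells, -5.99 and 1.20 with miR-195, and -4.22 and -2.20 with miR-497. The first of them read below 0 on all 3 arrays and the other on the miR-497 array. None of its 43 used spots was well above background, 30 were below 0, and 0 were above the 95th percentile of the negative controls. The highest used spot read 4.65 units in non-treated cells, 4.21 with miR-195 and 0.718 with miR-497. A single spot of the non-treated array read 20.5 units and was well above background, but the software had marked it as an outlier among the 8 spots of its probe, and it was left out. The 3 arrays overlapped in all of this, and no difference of hsa-miR-222 between them can be given. The summed signal is a statement about these probes and this depth, and it does not show that the miRNA is absent from the cells.

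**Figure D1:**
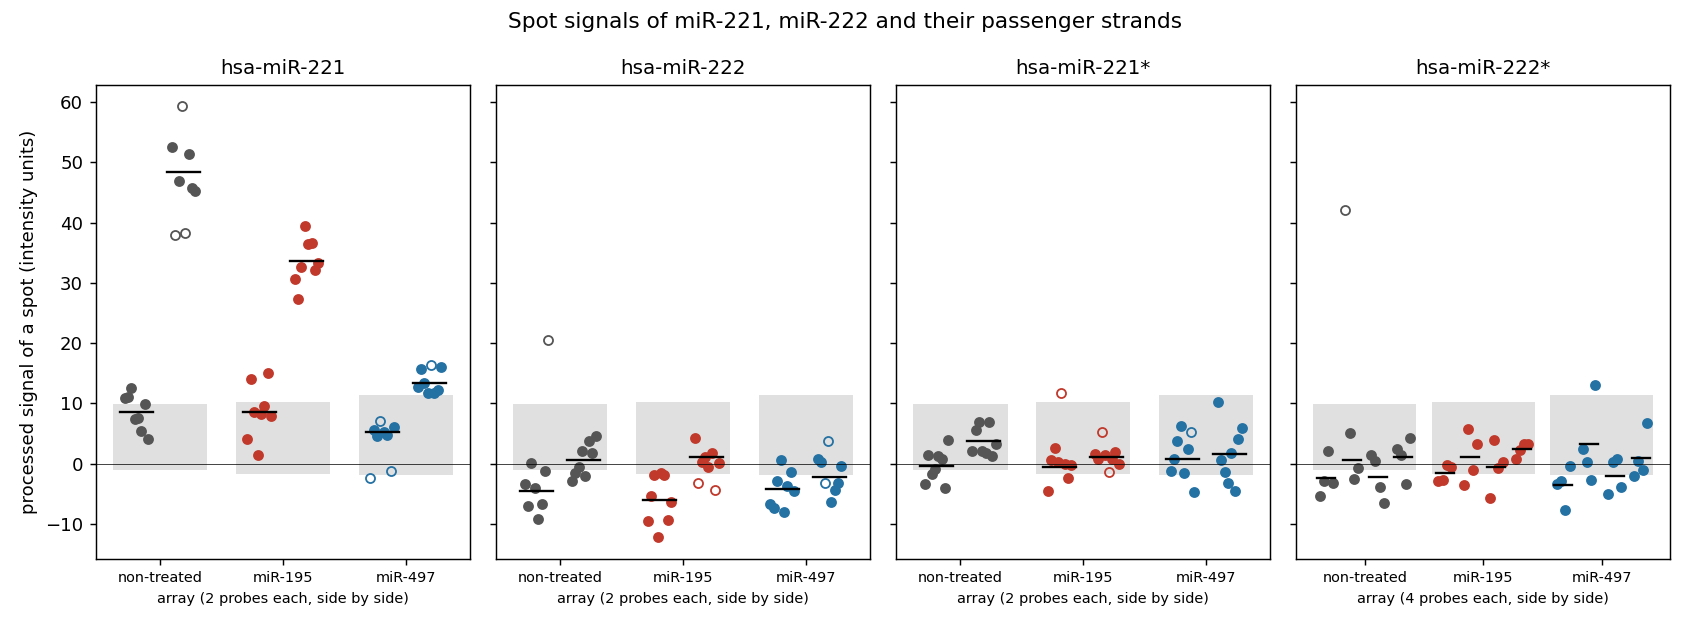
Processed signal of every spot (intensity units) for hsa-miR-221, hsa-miR-222 and their passenger strands on the non-treated (grey), miR-195 (red) and miR-497 (blue) arrays, with the probes of a miRNA side by side. Filled points are used spots, open points are spots left out as outliers, short lines are probe means, and grey bands span the 5th to the 95th percentile of the negative control spots. The brighter probe of hsa-miR-221 lies above the band on all 3 arrays, at 45.2 to 52.6, 27.3 to 39.4 and 11.7 to 16.1 units, while the used spots of hsa-miR-222 reach at most 4.65 units.

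The passenger strands, the arms of the hairpins that are mostly discarded, were examined as a second view of the same transcript. hsa-miR-221* summed to 3.43 units (spot SD 3.57) in non-treated cells, 0.554 (spot SD 2.45) with miR-195 and 2.53 (spot SD 6.14) with miR-497. hsa-miR-222*, with 4 probes, summed to -2.61 (spot SD 7.11), 1.46 (spot SD 6.06) and -1.23 (spot SD 8.95) units in the same order. Neither was well above background on any array, and of their 44 and 47 used spots 0 and 1 were above the 95th percentile of the negative controls. On all 3 arrays the spot SD of either passenger strand was larger than the size of its summed signal. Of the 4 arms of these hairpins, hsa-miR-221 alone was therefore measured, on 2 of the 3 arrays.

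The miR-195 and non-treated arrays were compared for hsa-miR-221, which was measured on both. Divided by the 75th percentile of each array, its level was -3.86 log2 units (spot SD 0.11) in non-treated cells and -4.21 (spot SD 0.20) after the miR-195 mimic. The log2 difference, miR-195 minus non-treated, was -0.35 (spot SD 0.23), or 1.27-fold lower, and it exceeded its spot SD. It did not reach 2-fold. In the same comparison 5 of 147 measured human miRNAs, 3.4%, differed by at least 2-fold. With or without scaling, 2.72% of the 147 were that much higher and 0.68% that much lower. The scaled differences of all 147 had a median of -0.0088 and an SD of 0.37. hsa-miR-221 stood 13th from the bottom of them, less than 1 such SD from the median.

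The sign of this small difference followed the scaling. It was -0.43 without scaling, -0.47 with quantile normalization and -0.88 when every non-control probe entered the 75th percentile. Scaled by 8 spike-in RNAs it was 0.063, and with the normexp background correction -0.057. Relative to the median of all measured miRNAs, hsa-miR-221 was lower by a difference of -0.34 in the scaling as reported, and of -0.34 also with spike-ins, since a scaling moves all miRNAs together. That relative difference was -0.27 with quantile normalization and -0.088 with normexp.

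**Figure D2:**
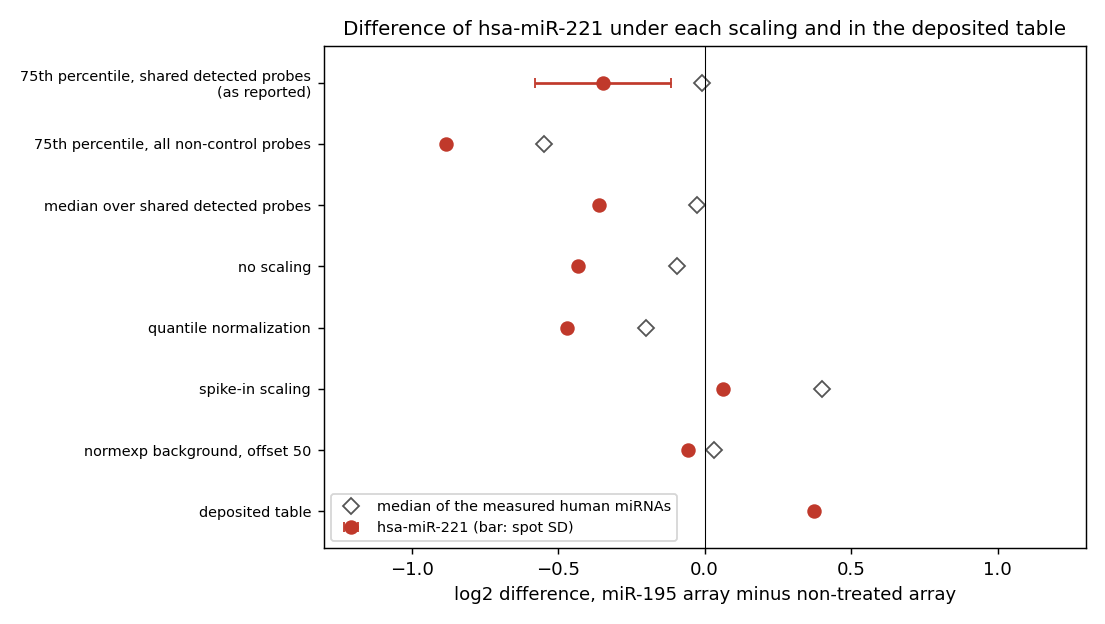
Log2 difference of hsa-miR-221 between the miR-195 and the non-treated array (horizontal axis, red points) under each scaling or background setting and in the deposited table, with the median over the measured human miRNAs of the same setting (open diamonds). The bar on the top point is the spot SD of 0.23. hsa-miR-221 is to the left of the diamond under all 7 scaling and background settings, at -0.35 against -0.0088 as reported and 0.063 against 0.40 with spike-ins, and the deposited table has it to the right of 0, at 0.37. Dividing an array by a constant moves point and diamond together, so only quantile normalization and normexp could change the distance between them. The 7 settings are therefore not 7 separate checks.

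Against the miR-497 array hsa-miR-221 had only a bound. Where a miRNA was not well above background, its level was set to whichever was higher, what its own spots gave or the faintest human miRNA that did pass on that array, here 19.1 units. That level is set by rule and is no limit of error, since the own signal of hsa-miR-221 there was 18.6 units (spot SD 1.91). By this rule, before scaling, hsa-miR-221 with the miR-497 mimic was at least 2.98-fold lower than in non-treated cells. The log2 value was at least 1.57. Against the miR-195 array it was at least 2.21-fold lower, at least 1.14 on the log2 scale. The whole array was dimmer, however: in the unscaled signals, 95.8% of 118 miRNAs were lower by at least 2-fold than in non-treated cells, and 97.4% of 117 were that much lower than on the miR-195 array. The share of the background thus was nearly all miRNAs, and the 2.98-fold bound says nothing particular about hsa-miR-221.

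After scaling as reported, the bound of the miR-497 array lay above the level measured in the other cells, so that no fold could be given. The measured level minus the bound was -0.077 log2 units for non-treated cells and -0.42 for the miR-195 array. A value below 0 gives no direction, and the scaling set whether a fold could be given. For non-treated cells the value was 1.31 with the 75th percentile of every non-control probe, 1.29 with spike-ins and 0.092 with quantile normalization, and for the miR-195 array it was 0.42 and 1.36 under the first and second of these. The median difference of all miRNAs from non-treated cells moved with them, to -1.36 and -1.34 under the first and second, where 110 and 108 of them were at least 2-fold lower. In the reported scaled comparisons 3.39% of 118 and 1.71% of 117 miRNAs reached 2-fold. The scaled levels computed from its own signals were -3.86 in non-treated cells, -4.21 with miR-195 and -3.82 with miR-497, the last from spots not well above background. The last value is open to any lower level, and the order of the miR-497 array among the 3 is therefore not known. With these levels taken as measured, the closest of 117 miRNAs detected on all 3 arrays were hsa-miR-197, hsa-miR-361-5p and hsa-miR-92a-2*, at root mean square distances of 0.040, 0.046 and 0.050 log2 units. These distances rest on that undetected level, and nothing is drawn from them.

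The ratio within the pair could be given only as a bound, since hsa-miR-222 was measured on no array. On the non-treated array the signal of hsa-miR-221 was at least 5.12 times the 11.1 units that were the lowest signal of a detected human miRNA. On the miR-195 array it was at least 1.78 times the corresponding 23.7 units, and on the miR-497 array no ratio could be formed. These bounds move with the lowest detected signal of each array, and they do not show that the ratio changed. On the log2 scale the bound of the non-treated array was 2.36, and it was 0.37 with normexp and 1.60 when all used spots had to be well above background. That of the miR-195 array was 0.83, and 0.17 with normexp. A ratio of signals of different probes is also not a ratio of molecules, because probes bind and report their targets with different strength.

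Other pairs of neighbouring miRNAs from common transcripts show what the array recorded where both members were detected. Of 24 such pairs, 23 had both names on the array. In non-treated cells both members were well above background in 14 of them, 1 member in 3 and neither in 6. The pair of hsa-miR-221 and hsa-miR-222, not counted among them, was of the second kind on this array and on the miR-195 array, where the counts were 13, 4 and 6, and of the last kind on the miR-497 array. hsa-miR-183 and hsa-miR-96, detected beside an undetected hsa-miR-182, were other examples of pairs with 1 member detected. These pairs share hsa-miR-182, and hsa-miR-93 and hsa-miR-125a-5p also occur in more than 1 pair each. The pairs counted here are thus not all separate transcripts. In the 13 pairs measured on both arrays, the log2 ratio within a pair differed, miR-195 minus non-treated, by -0.57 to 0.44, with a median of -0.027, and 0 reached 2-fold. On the miR-497 array the 11 measured pairs ran from -0.50 to 0.47 with a median of 0.047 against non-treated cells, and again 0 reached 2-fold. No such value exists for hsa-miR-221 and hsa-miR-222.

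hsa-miR-221 and hsa-miR-222 were also set beside 19 other miRNAs known as raised in liver cancer. Of these, 17 were well above background in non-treated cells, 17 with the miR-195 mimic and 16 with the miR-497 mimic. They included hsa-miR-21, hsa-miR-224, which lies in an intron of GABRE, and members of the miR-17-92 and miR-106b-25 clusters. Of all 851 human names, 168, 153 and 121 were well above background on the same arrays. The list was chosen with earlier results of these data known, so its higher share is no finding about liver cancer miRNAs. hsa-miR-155, a miRNA of activated immune cells, and hsa-miR-182 were not detected on any array, like hsa-miR-222. hsa-miR-210, which is induced by hypoxia, was detected like hsa-miR-221 on the non-treated array at 33.9 units and on the miR-195 array at 46.7 units, and not on the miR-497 array. For miR-195 against non-treated cells, 0 of the 17 measured members reached 2-fold, their differences ran from -0.32 to 0.55, and their median was 0.092 beside -0.0088 for all 147 miRNAs. The difference of hsa-miR-221, -0.35, lay just below the lowest of them, that of hsa-miR-21 at -0.32. On the miR-497 array 0 of 16 reached 2-fold against non-treated cells, with a median of 0.21 beside 0.028 for all 118. Against the miR-195 array 1 of 16 reached it, hsa-miR-21, which was higher by 1.05 log2 units. Of all measured miRNAs 3.4%, 3.39% and 1.71% reached 2-fold in these comparisons, in the same order.

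The deposited table gives a different picture of the pair, with hsa-miR-221 high on all 3 arrays. The deposited log2 values of hsa-miR-221 were 10.91 for non-treated cells, 11.28 for miR-195 and 9.64 for miR-497, while hsa-miR-222 and both passenger strands were at the floor of 0 on each array. For the miRNAs examined, the table values equalled the log2 of the scanning software's total per miRNA. For hsa-miR-221 that total was 1925 units in non-treated cells, of which its only significant probe gave 25.1. The software's totals are on a scale of their own and cannot be set against sums of spot means. Significant means here a probe total above 3 times its error.

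The remainder equalled the total of another miRNA. hsa-miR-22, the preceding detected name in alphabetical order, had a total of 1900 units on the non-treated array, and the total of hsa-miR-221 minus the sum of that total and its own 25.1 units was -0.0024 units. On the miR-195 array the totals were 2495 units for hsa-miR-221 and 2477 for hsa-miR-22, with 17.3 units from the probe of hsa-miR-221. On the miR-497 array they were 798 and 791 units, with 7.10 from its own probe. In the same order of arrays, hsa-miR-22 made up 98.7%, 99.3% and 99.1% of the total listed for hsa-miR-221. The log2 of its own significant probe would have been 4.65, 4.11 and 2.83 in place of 10.91, 11.28 and 9.64.

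**Figure D3:**
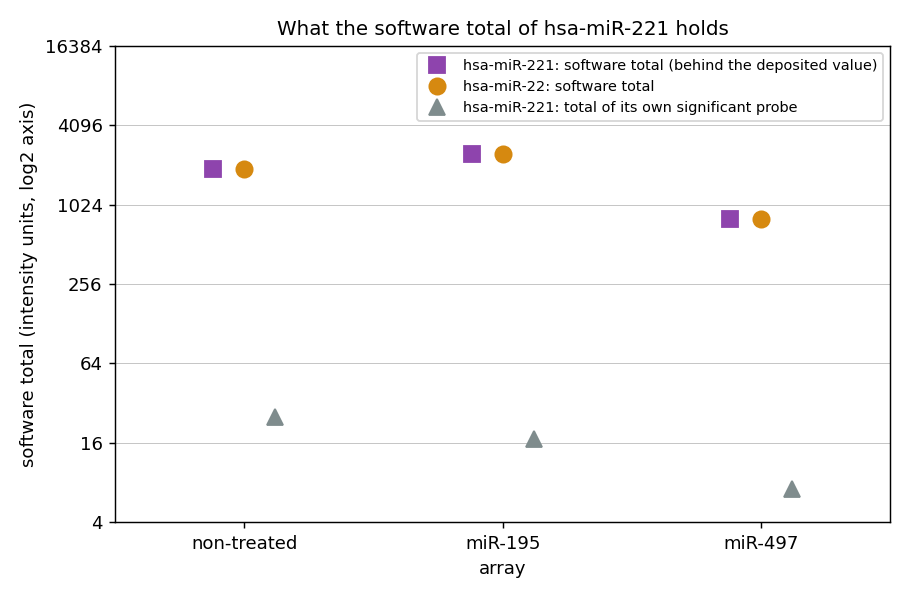
Software total per miRNA (intensity units, log2 axis) on the 3 arrays for hsa-miR-221, for hsa-miR-22, and for the significant probe of hsa-miR-221 alone. The total of hsa-miR-221 (1925, 2495 and 798 units) lies just above that of hsa-miR-22 (1900, 2477 and 791 units), and the probe of hsa-miR-221 itself gives 25.1, 17.3 and 7.10 units.

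Differences taken from the table, which here carried no scaling between arrays, held the same sum. With miR-195, against non-treated cells, the deposited hsa-miR-221 was higher by 0.37 log2 units and the deposited hsa-miR-22 by 0.38, whereas the own probe totals of hsa-miR-221 differed by -0.54. With miR-497, against non-treated cells, the deposited values of hsa-miR-221 and hsa-miR-22 both differed by about the same amount, -1.27 and -1.26, and the own probe totals of hsa-miR-221 by -1.82. The signals of hsa-miR-22 summed from spots were 3659, 4814 and 1490 units on the non-treated, miR-195 and miR-497 arrays, and its difference after scaling was 0.48 (spot SD 0.089) for miR-195 minus non-treated. In the deposited values hsa-miR-221 and hsa-miR-22 thus moved alike, and in their own probes, as scaled here, they lay on opposite sides of 0 in this comparison. With spike-ins hsa-miR-221 was also above 0, at 0.063.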

How the data were processed

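Per the file headers, the deposited scanner files came from Agilent Feature Extraction 10.7.1.1 and held spot intensity with the background subtracted and no scaling between arrays. The authors also deposited a log2 table made in GeneSpring with a floor of 1 and, in the study's methods, a 75th percentile shift, although for the miRNAs examined it equalled the log2 of the software total. Groups followed the sample labels. Control spots and outlier spots were left out, processed signals were averaged per probe, summed per miRNA, divided by the array's 75th percentile over 183 probes detected on all 3 arrays, and converted to log2. No spot was saturated. With 1 array per group no test was made, and a difference was counted from 2-fold. The summary was tested on simulated spots with known changes in detected miRNAs and equal array brightness. That test did not cover a dimmer array, an undetected miRNA or a bound. All miRNA lists and the named pair were chosen with earlier results of these data known. The miRNAs named as closest to hsa-miR-221 were the 3 with the smallest root mean square distance between scaled log2 values centred over the arrays. By that rule hsa-miR-222, without a positive signal, has none. Alternatives covered scaling, background (normexp, offset 50, limma 3.58.1), spots, probes, detection, and the deposited table. Python 3.11.15 and pandas 2.3.3 were used. Of 851 human array names 576 matched a RefSeq mature name, with or without its arm.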

Additional observations from a re-analysis of the deposited data

How the results depend on the processing

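Of the values that answer a comparison, 58 of those recomputed stayed within the spot SD or within 1.5 times a count, and 34 moved further. Some of the 58 could not move, since dividing an array by a constant cancels in the ratio of the pair. Others were detection counts, where a change from 2 to 3 arrays also passed as within 1.5 times. None was called at 2-fold after scaling, so a change of sign in a called value could not occur. The detection of hsa-miR-222 and both passenger strands was 0 arrays under every alternative run for it. hsa-miR-221 was detected on 2 arrays as reported, on 3 by the software total, the deposited table or the weaker flag (an alternative chosen after seeing the data), and on 0 without its brighter probe, where no difference could be formed. Its difference, miR-195 minus non-treated, -0.35 as reported, was -0.88 with the 75th percentile of all probes, 0.063 with spike-ins, -0.057 with normexp, 0.38 in software totals and 0.37 in the deposited table. The non-treated level minus the bound on the miR-497 array was -0.077 as reported. It was 1.31 with the percentile of all probes, 1.57 unscaled, 0.092 with quantile normalization, 1.29 with spike-ins and -1.09 with normexp. The value was -0.37 with the mean of log2 probe signals, -0.31 without the dimmer probe and -0.69 when all used spots had to be well above background. In the deposited table, with a value on all 3 arrays, it was a plain difference of 1.27, without a bound. The miR-195 level minus the bound on the miR-497 array was -0.42 as reported. It was 0.42 with the percentile of all probes, 1.14 unscaled, 1.36 with spike-ins and -1.15 with normexp. Without the dimmer probe it was -0.75, and with all spots well above background -0.92. The values of 0.33 in software totals and 1.64 in the deposited table were again plain differences. The bound on the log2 ratio of the pair in non-treated cells, 2.36 as reported, was 2.57 with quantile normalization, 0.37 with normexp, 2.96 with the mean of log2 probe signals, 7.65 in software totals, 2.12 without the dimmer probe, 2.04 with the median over spots and 1.60 with all spots well above background. With miR-195, 0.83 as reported, it was 0.17 with normexp, 1.99 with the mean of log2, 8.19 in software totals and 0.50 without the dimmer probe. The software totals and the deposited table hold the sum with hsa-miR-22, and for the other settings the cause was not tested. The normexp setting adds an offset of 50 units to each spot. In processed signal the brighter probe of hsa-miR-221 averaged 48.4, 33.5 and 13.4 units on the non-treated, miR-195 and miR-497 arrays. With an offset of that size, the normexp value of -0.057 is no separate sign that the difference is small. Signals near the lowest detected level limit every value here. No paired analysis was possible because each group had 1 array and the labels give no shared replicate numbers, and no array could be left out for the same reason.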

Other observations

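hsa-miR-183, an epithelial and sensory-cell miRNA on the list of miRNAs known as raised in liver cancer, was the only one of the 19 whose software total exceeded the sum of its own significant probes, and it did so on all 3 arrays. On the miR-497 array it totalled 2017 units, its own probes accounted for 82.7, and the total of hsa-miR-17*, the preceding detected name, was 1934 units. The total of hsa-miR-183 minus the sum of both was -0.0019 units. The listed total of hsa-miR-17* was far lower on the brighter arrays, at 171 units (non-treated) and 146 units (miR-195 mimic). With the miR-497 mimic it lay just above the total of hsa-miR-17, which was 1898 units. Whether the 1934 units also held the total of another miRNA was not tested, so they are not shown to be the own signal of hsa-miR-17*. On the non-treated array hsa-miR-183 totalled 377 units, against 206 in its own probes. On the miR-195 array it totalled 222 units, against 205 in its own probes. The name whose total made up the remainder there was a different one, hsa-miR-1825, at 16.9 units. The deposited log2 value of hsa-miR-183 was therefore 8.56 in non-treated cells and 10.98 with the miR-497 mimic, while its own probe totals gave 7.69 and 6.37. By spots, hsa-miR-183 was at 793, 796 and 309.7 units on the non-treated, miR-195 and miR-497 arrays. The software detected 17, 17 and 16 members of the list on these arrays, and hsa-miR-183 was the only one with such an excess on each. The list does not show how common such an excess is among other names. Outside it, hsa-miR-21* was listed at 19933 units on the miR-497 array, just above hsa-miR-21 at 19918 units. On the non-treated and miR-195 arrays hsa-miR-21* was at 83.2 and 49.7 units. Whether its total also held that of hsa-miR-21 was not tested.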
